A study of Mus musculus with 20 samples.

Results

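Marrow that carried a mutant splicing factor and had been exposed to a splicing modulator was compared with marrow that had neither. The comparison set 5 mice with the U2AF1(S34F) transgene and sudemycin D6 (Sud_MUT_2, 6, 9, 10 and 12) against 5 vehicle-treated mice with the U2AF1(WT) transgene (Veh_WT_1 to 5), which is 10 of the 20 mice sequenced. The members were chosen by their group labels alone, and results were counted on autosomes, which held 34551 of the 37620 genes in the table. Both groups were prepared by the same protocol apart from the S34F change and the drug, but their sex-linked transcripts also differed, as given below. Marrow of transgenic donors aged 8 to 12 weeks, pooled from 2 to 3 donors of a genotype, was transplanted into lethally irradiated wild-type recipients aged 6 to 12 weeks, so mice of a group may share donors. All mice were fed doxycycline chow (625 ppm) for 7 days, which turned on the U2AF1 transgene through the rtTA activator that they also carried. During the last 5 of those days sudemycin D6 (50 mg/kg/day) or vehicle was infused for 4 h a day through a jugular catheter, and bulk bone marrow was taken 18 h after the last dose. Irradiated recipients keep their own stromal and endothelial cells, and the transgene expresses U2AF1 beyond the endogenous gene in both groups. Stranded libraries of total RNA depleted of ribosomal RNA were read as 126 bp pairs. Mutation and drug changed together here, so their parts cannot be told apart within this comparison. The single comparisons (mutation under vehicle, drug in U2AF1(WT) mice, drug in U2AF1(S34F) mice) share mice with it and are given beside it as values only, whether or not they were called.

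U2AF1 is the small subunit of the U2 auxiliary factor, which binds the AG dinucleotide at the end of an intron and helps to place the U2 snRNP at the 3′ splice site. The S34F substitution lies in a zinc finger that contacts the bases around that AG and is recurrent in myelodysplastic syndromes. Sudemycins bind the SF3B1 subunit of the U2 snRNP and interfere with recognition of the branch point, which lies upstream of the same splice site. Bone marrow is a mixture of maturing neutrophils, erythroid cells, B cells, monocytes, megakaryocytes and rarer progenitors, so a bulk level of a gene depends on which cells are present as well as on what each cell transcribes.

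Gene counts summed to between 41145892 and 53492246 in Veh_WT mice and between 51136901 and 58414054 in Sud_MUT mice, with 34384214 to 54774504 and 49566969 to 59671324 junction reads. Counts are printed below as CPM, the usual count per fixed total of reads, here after TMM scaling of the library sizes. No 2 libraries held identical values. The correlation of log2 CPM between mice of a group was 0.976 to 0.993 in Veh_WT and 0.990 to 0.995 in Sud_MUT. Veh_WT_2 stood apart. On the first principal component, which held 63.8% of the variance, its loading was 0.07, whereas the other Veh_WT mice lay between 0.28 and 0.43 and the Sud_MUT mice between −0.35 and −0.26. Counts over all events and genes, and counts of some lists, are therefore also given without it. A list without such a second count may have moved as well. The gene counts could not show the S34F base itself. Whether reads of the transgene entered the count of the mouse gene U2af1 was not tested. U2af1 was at 34.8 to 38.4 CPM in the Veh_WT mice and at 51.4 to 58.0 in the Sud_MUT mice (log2 fold change 0.60, SE 0.06, FDR=2.02e-05, edgeR with Benjamini-Hochberg adjustment). The genotypes also differed in sex-linked transcripts. Xist, the RNA of the inactive X chromosome, had 54753 to 78640 counts in each Veh_WT mouse and 1 to 8 in each Sud_MUT mouse, and 4 Y-linked genes summed to 0 to 4 and 11217 to 13283 counts. A sex-linked difference between donors or recipients therefore cannot be told apart from the transgene in any result below.

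Cassette exons, which are either included in the mRNA or skipped with both flanking introns, were scored from exon-exon junction reads. Ψ is the fraction of spliced transcripts with the exon, and ΔΨ is the mean Ψ of Sud_MUT minus that of Veh_WT. Of 24831 autosomal cassette exon events with enough reads, 1538 differed (6.19%, FDR<10% and |ΔΨ|>1%, Benjamini-Hochberg adjusted p of edgeR's quasi-likelihood fit to the isoform ratio). They held 1423 different exons in 1048 genes or groups of overlapping genes. In 892 events (3.59% of those tested) the exon was skipped more in Sud_MUT, and in 646 (2.60%) it was included more. The median size of the called differences was 0.0675, with 537 events over 0.1 and 66 over 0.3. Over all 24831 events tested, called or not, the Ψ values of the groups did not overlap in 1368 (5.51%), and 933 of these were called. Without Veh_WT_2, 1497 events were called (836 skipped more, 661 included more). The count rests on the way spread between mice was modelled. It was 37 (24 skipped more, 13 included more) where a negative binomial dispersion was estimated in addition, and 982 (656 skipped more, 326 included more) by limma on Ψ.

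The comparisons that changed 1 factor gave these counts. With the mutation under vehicle 752 of 24891 events were called (3.02%), with the drug in U2AF1(WT) mice 243 of 24672 (0.985%), and with the drug in U2AF1(S34F) mice 293 of 24237 (1.21%). These counts come from overlapping sets of mice and were not tested against each other. A term for the interaction of genotype and drug over all 20 mice was called in 0 of 24772 cassette exon events (edgeR, FDR<10%), with 1213 at an unadjusted p under 0.05.

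The 3′ splice sites in front of the exons with the largest differences are shown because both U2AF1 and the U2 snRNP act there. Each sequence is the last 20 bases of the upstream intron and the first 3 bases of the exon, read 5′ to 3′ on the transcribed strand from the mouse genome NCBIM37 (mm9), and the capitals mark the last 3 intron bases. The first capital is the base at position −3, which precedes the AG. The first 4 are exons skipped more in Sud_MUT that have a T there, the next 3 are skipped exons with a C there, and the last 5 are exons included more. Of all 8 skipped exons named below, 4 had a T, 3 a C and 1 a G at −3, and of the 8 included exons 4 had an A, 3 a C and 1 a T.

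Smc6, chr12:11283046-11283068, plus strand: gtcaatatgtgccttttTAGgtg
Ythdf3, chr3:16086947-16086969, plus strand: tattgtcgctgtttttgTAGgtg
Ccbl2, chr3:142369633-142369655, plus strand: tcaatgtctcttttctcTAGcat
Itgb3bp, chr4:99468921-99468943, minus strand: aaattattatttatttcTAGtca
Tpd52, chr3:8943575-8943597, minus strand: cttcctctggcttcttaCAGatt
Naip2, chr13:100932317-100932339, minus strand: ctccattctatcccctaCAGatg
AB124611, chr9:21344266-21344288, plus strand: tcttctgaatccctttgCAGaga
4932438A13Rik, chr3:36921872-36921894, plus strand: ttcttattattttaattAAGttg
Ktn1, chr14:48324075-48324097, plus strand: tctgttttatcattgtcAAGgct
Clk4, chr11:51082251-51082273, plus strand: tatttctgtctgttcctAAGggg
1110005A03Rik, chr11:116707113-116707135, plus strand: aatccctcctttaatccCAGcat
A630001G21Rik, chr1:87623075-87623097, minus strand: caagctgtttcctttccTAGaaa

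A T at −3 was more frequent among the exons skipped more than among those included more. Among the 820 different exons skipped more, 66.2% had a T at that position, 28.5% a C and 4.02% an A. Among the 610 included more, 12% had a T, 72.1% a C and 15.2% an A. Over all 20123 exons tested the shares were 35.3% T, 57.3% C and 6.85% A. Without Veh_WT_2, T stood at 63.0% of the exons skipped more and 12.6% of those included more. The single comparisons, which share mice with this one, gave 76.6% and 7.12% T for the mutation under vehicle, 28.9% and 31.5% for the drug in U2AF1(WT) mice, and 29.6% and 31.0% for the drug in U2AF1(S34F) mice. These shares are a description of the exons called and were not tested.

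**Figure D1:**
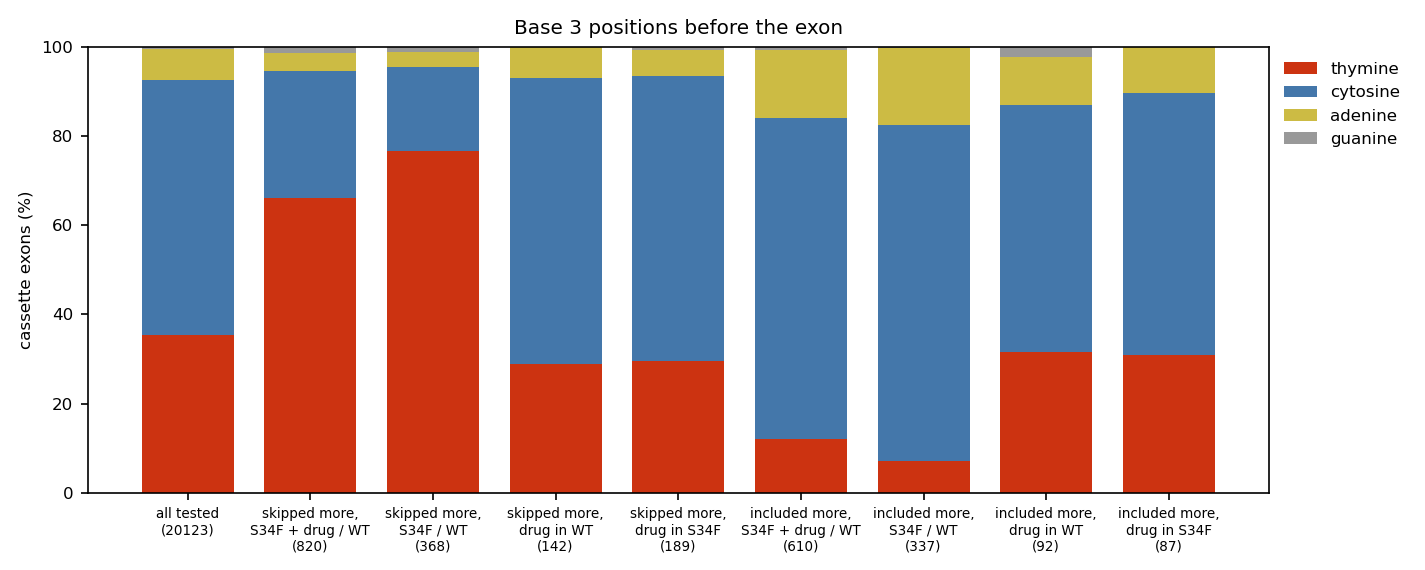
Share of exons (%) with A, C, G or T at position −3 of the 3′ splice site, for all cassette exons tested and for those skipped more or included more in each comparison, with the number of exons in parentheses. In Sud_MUT against Veh_WT the share with T is 66.2% of the exons skipped more and 12% of those included more, against 35.3% of all exons tested.

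Exon and intron lengths are given next. The exons skipped more lay between longer introns, with medians of 2857 bases upstream and 3242.5 downstream, while those included more had medians of 1608.5 and 1419 and all tested exons 2100 and 1881. Exons of at most 30 bases made up 4.76% of those skipped more, 1.80% of those included more and 1.88% of all tested. A length that is a multiple of 3, which keeps the reading frame when a coding exon is skipped, was found in 49.0% of the exons skipped more, 40.8% of those included more and 38.9% of all tested. In the exons skipped more in the single comparisons, the median upstream and downstream introns were 1725 and 1970 bases for the mutation under vehicle, 4366.5 and 5584 for the drug in U2AF1(WT) mice, and 5036 and 6272 for the drug in U2AF1(S34F) mice.

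The exon with the most uniform shift among those named was a 63-base exon of 4932438A13Rik (chr3:36921892-36921954), which encodes a very large bridge-like lipid transfer protein. Its Ψ in the 5 Veh_WT mice was 0.304, 0.288, 0.291, 0.239 and 0.313. In the 5 Sud_MUT mice it was 0.630, 0.611, 0.589, 0.577 and 0.621. The groups were far apart, with SDs of 0.0286 and 0.0220. ΔΨ was 0.318 (SE 0.0161, FDR=4.54e-09, edgeR with Benjamini-Hochberg adjustment), and 0.319 without Veh_WT_2. The single changes were 0.142 for the mutation, 0.158 for the drug in U2AF1(WT) mice and 0.176 for the drug in U2AF1(S34F) mice, so that each comparison showed a gain of similar size. An event that joins the same exon to another downstream site shifted by 0.159 with overlapping groups, and a 151-base exon upstream in the gene was skipped slightly more, by 0.0319, and each of these calls was lost when some single mice were left out. None of these 3 was called with an estimated dispersion.

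Other exons included more had larger differences and more spread. An exon of Ktn1 (chr14:48324095-48324163, 69 bases), which encodes the kinesin receptor kinectin, had Ψ of 0.207, 0.270, 0.383, 0.2 and 0.217 in Veh_WT mice. It was at 0.593, 0.654, 0.734, 0.636 and 0.712 in Sud_MUT mice. Every Sud_MUT value exceeded every Veh_WT value (ΔΨ 0.410, SE 0.0428, FDR=2.74e-07, edgeR with Benjamini-Hochberg adjustment), and the single changes were 0.258 for the mutation, 0.0850 for the drug in U2AF1(WT) mice and 0.152 for the drug in U2AF1(S34F) mice. Of these single changes, only that of the mutation was called. Clk4 is a kinase that phosphorylates SR splicing factors. Its 78-base exon (chr11:51082271-51082348) rested on few reads, down to 15 junction reads in a mouse, and Ψ was 0.213, 0.327, 0.321, 0.0323 and 0.154 in Veh_WT against 0.592, 0.434, 0.589, 0.535 and 0.648 in Sud_MUT (ΔΨ 0.350, SE 0.0660, FDR=0.0207). A 127-base exon of 1110005A03Rik (chr11:116707133-116707259) rose from 0.239 to 0.366 in Veh_WT to 0.532 to 0.880 in Sud_MUT, with single changes of 0.422 for the mutation and −0.0291 and −0.0436 for the drug. By contrast, a 44-base exon of A630001G21Rik (chr1:87623034-87623077), an uncharacterised gene, was at 0.333 to 0.640 in Veh_WT and 0.846 to 1 in Sud_MUT, with single changes of 0.366 for the mutation and 0.551 for the drug in U2AF1(WT) mice. The 3 other exons of this kind were in 4930523C07Rik (ΔΨ 0.513), 5930416I19Rik (0.372, with 1 of the 5 Sud_MUT mice at 1 and the others at 0.282 to 0.479) and Cass4 (0.325), which encodes a scaffold protein of focal adhesions.

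Among the exons skipped more, that of Smc6 was well covered, with 102 to 335 junction reads a mouse. Smc6 is a subunit of the SMC5/6 complex, which acts in DNA repair. Ψ of its 106-base exon (chr12:11283066-11283171) was 0.757, 0.837, 0.805, 0.894 and 0.849 in Veh_WT and 0.482, 0.549, 0.473, 0.427 and 0.494 in Sud_MUT. The groups did not overlap (ΔΨ −0.343, SE 0.0301, FDR=5.09e-06, edgeR with Benjamini-Hochberg adjustment). The mutation under vehicle gave −0.268, the drug in U2AF1(WT) mice −0.00614 and the drug in U2AF1(S34F) mice −0.0755. Ythdf3 encodes a reader of N6-methyladenosine in mRNA. Its 149-base exon (chr3:16086967-16087115) was at 0.755 to 0.892 in Veh_WT and 0.323 to 0.529 in Sud_MUT (ΔΨ −0.435, SE 0.0421, FDR=0.000339), with −0.143 for the mutation and −0.529 and −0.292 for the drug. Of these single changes, only that of the drug in U2AF1(WT) mice was called.

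Tpd52, which encodes a protein of vesicle trafficking, lost a 27-base exon (chr3:8943551-8943577). Its Ψ was 1, 1, 1, 0.6 and 0.889 in Veh_WT mice against 0.420, 0.5, 0.446, 0.569 and 0.314 in Sud_MUT mice (ΔΨ −0.448, SE 0.0883, FDR=0.00307, edgeR with Benjamini-Hochberg adjustment). The single changes were −0.134 for the mutation, which was not called (FDR=0.517), and −0.524 and −0.313 for the drug in the WT and S34F genotypes. The 44-base exon of AB124611 (chr9:21344286-21344329) was at 0.644 to 0.830 in Veh_WT and 0.221 to 0.397 in Sud_MUT, with −0.302 and −0.259 for the drug and −0.136 for the mutation, the last not called. The exon of Itgb3bp, which encodes a centromere protein, fell from 0.886 to 1 to between 0.467 and 0.797, with −0.501 for the mutation. A 2244-base exon of Naip2 (chr13:100930076-100932319) had the largest difference of the 16 named cassette exons (ΔΨ −0.539), but the Sud_MUT mice held only 13 to 117 junction reads for it and Ψ there ranged from 0.0625 to 0.8. Naip2, a sensor of bacterial proteins, has near-identical neighbours that can share its reads, so this value is uncertain. Ccbl2 (−0.388) and Fam188a (−0.358) completed the 8, and the Fam188a call was lost without Veh_WT_1. With an estimated dispersion, Smc6, Ythdf3 and Ktn1 stayed called among these 16 exons.

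**Figure D2:**
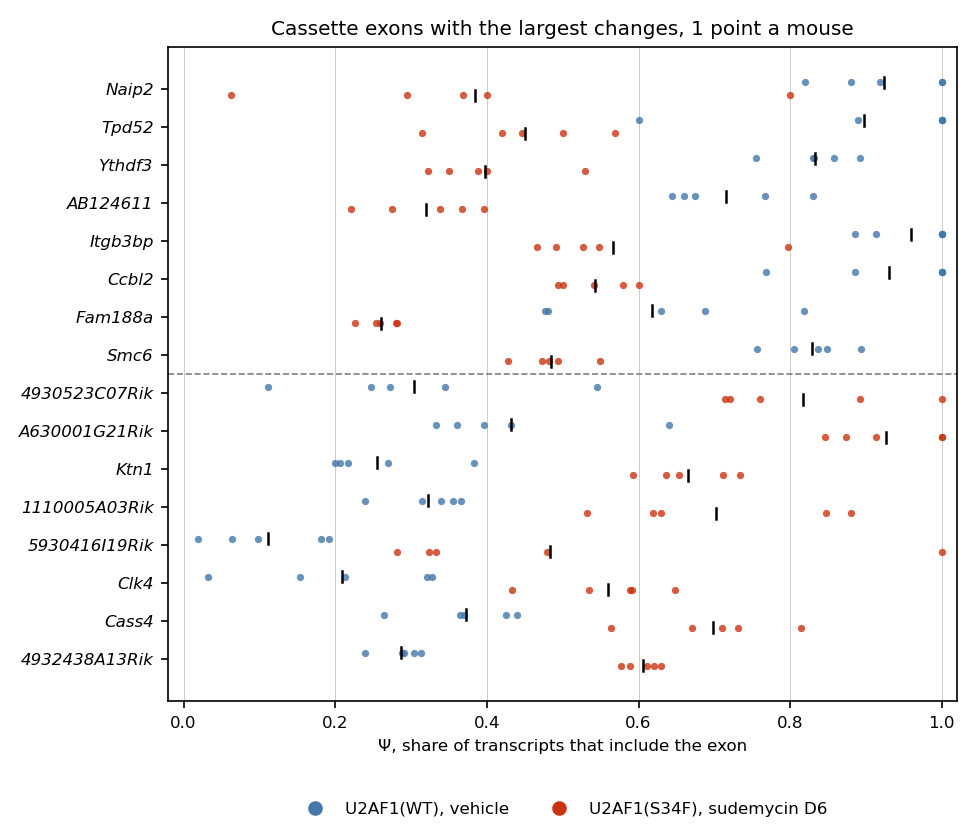
Ψ of named cassette exons in each mouse (points) with the group mean as a bar, for Veh_WT (blue) and Sud_MUT (red), exons skipped more above the dashed line and those included more under it. The 4932438A13Rik exon sits between 0.239 and 0.313 in the Veh_WT mice and between 0.577 and 0.630 in the Sud_MUT mice, and the Smc6 exon between 0.757 and 0.894 and between 0.427 and 0.549.

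Alternative 3′ splice sites compete at the start of 1 exon. Of 2430 events, 95 differed (3.91%). With an estimated dispersion 2 were called, and 74 by limma on Ψ. Of the 95, 76.8% (73) moved toward the downstream site, which gives the shorter exon. Without Veh_WT_2 there were 100. At the site used less in Sud_MUT the base at −3 was T in 58.9% and C in 36.8% of events, at the site used more it was T in 10.5% and C in 73.7%, and over both sites of all events tested it was T in 21.9%. In 50 called events only the site used less had a T, and in 4 only the site used more did. The sites of called events lay a median of 68 bases apart, against 32.5 bases in all events tested. The longer and shorter acceptors of the events with the largest differences follow, with capitals as above.

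Itgb2l, longer exon, chr16:96647873-96647895, minus strand: caaccccggttgttttcCAGaaa
Itgb2l, shorter exon, chr16:96647830-96647852, minus strand: cgatgcttttgtcgttaCGGctt
Slc35c2, longer exon, chr2:165109101-165109123, minus strand: cctgcctctcttctctcCAGcag
Slc35c2, shorter exon, chr2:165109033-165109055, minus strand: cgtttggctctggccacCAGccc

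Itgb2l encodes a leukocyte integrin subunit related to CD18. The share of junction reads at the site that gives the longer exon was 0.872, 0.826, 0.711, 0.763 and 0.670 in Veh_WT mice and 0.331, 0.164, 0.222, 0.191 and 0.157 in Sud_MUT mice. These groups did not overlap, and each value rested on 371 to 1639 reads (ΔΨ −0.555, SE 0.0484, FDR=0.00230, edgeR with Benjamini-Hochberg adjustment). The mutation gave −0.514, while the drug gave 0.0304 and −0.0416 in the WT and S34F genotypes. In the reference genome its second acceptor does not end in AG. Slc35c2, a nucleotide sugar transporter of the Golgi, shifted from 0.667 to 0.889 to between 0.25 and 0.458 (ΔΨ −0.375), with −0.327 for the mutation and 0.0705 and −0.0484 for the drug. With an estimated dispersion the Itgb2l call held and that of Slc35c2 was lost (FDR=0.189, edgeR with Benjamini-Hochberg adjustment).

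Alternative 5′ splice sites differed in 18 of 1430 events (1.26%), and in 27 without Veh_WT_2. No event stayed called with an estimated dispersion (edgeR, 86 at an unadjusted p under 0.05), 6 did by limma on Ψ, and 36 were called by the classic quasi-likelihood form. In Lyrm5, which encodes a regulator of the electron transfer flavoprotein, all 5 Sud_MUT mice were at 1 for the longer exon, whereas Veh_WT mice were at 0.657 to 0.903 (ΔΨ 0.216, single change 0.216 for the mutation). In Pcf11, a cleavage and polyadenylation factor, the longer exon fell from 0.337 to 0.611 to between 0.160 and 0.314 (ΔΨ −0.201). Neither was called by limma on Ψ.

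Mutually exclusive exons were scored as pairs joined to the same flanking sites, with no reads that join the pair directly. Whether a transcript can hold both through another exon was not tested. Of 1360 events, 216 differed (15.9%), and 211 without Veh_WT_2. The count was 18 with an estimated dispersion and 137 by limma on Ψ. Cd97, an adhesion receptor of leukocytes, used the first of its paired exons (57 bases, chr8:86258195-86258251, against 153 bases) at 0.448, 0.491, 0.421, 0.338 and 0.473 in Veh_WT mice. The share in Sud_MUT mice was 0.663, 0.691, 0.726, 0.649 and 0.739. The groups did not overlap, on 1460 to 2699 reads a mouse (ΔΨ 0.259, SE 0.0319, FDR=5.80e-05, edgeR with Benjamini-Hochberg adjustment), and the single changes were 0.219 for the mutation and 0.0635 and 0.0407 for the drug. With an estimated dispersion it was not called (FDR=0.103, edgeR). A related pair in Cd97 with a 115-base form differed by 0.0222, a call lost without Veh_WT_3, Veh_WT_5, Sud_MUT_9, Sud_MUT_10 or Sud_MUT_12. The largest difference among the events named here joined Gm14548 and Gm15448, near-identical paired immunoglobulin-like receptor genes, at 0 to 0.0385 in Veh_WT and 0.337 to 0.634 in Sud_MUT, and reads of such copies cannot be assigned with certainty. Cd44 (ΔΨ −0.382, FDR=0.0484) rested on few reads: Veh_WT_1 had none and dropped out, Veh_WT_4 had 6, and the call was lost without Veh_WT_2 (FDR=0.169) and without Sud_MUT_2, Sud_MUT_6 or Sud_MUT_10.

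Some gene lists held called exons at more than the rate of all events, differences that were not tested. Of 206 cassette exon events tested in SR and hnRNP genes, 31 were called (15.0%, against 6.19% of all events), in 18 genes that included Srsf2, Srsf3, Srsf7, Tra2b, Hnrnpd, Hnrnph1 and Clk4. Genes for 3′ splice site recognition and the U2 snRNP held 7 called of 69 (10.1%), in Rbm17, Rbm39 and U2af1. Whether reads of the transgene entered the U2af1 counts was not tested. Higher rates on fewer events were found in stromal and endothelial genes (3 of 8, all in Pecam1) and p53 targets (6 of 32, 18.8%, in 4 genes). The same was so for circadian clock genes (3 of 17, 17.6%, in 2 genes) and erythroid genes (5 of 31, 16.1%, in 2 genes). Several events can come from 1 gene, so these are rates of events and not of genes. In ribosomal protein genes 0 of 61 tested events were called by the edgeR test, in B-lineage genes 0 of 19 and in immediate-early genes 0 of 9.

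Whole-gene levels changed about equally often in each direction. Of 14224 autosomal genes tested, 7147 differed in level (50.2%, FDR<10%, from the quasi-likelihood fit of edgeR, Benjamini-Hochberg adjusted), with 3545 higher in Sud_MUT (24.9%) and 3602 lower (25.3%). Over all genes tested, called or not, the groups did not overlap in 3439 (24.2%), and 3412 of these were called. Without Veh_WT_2, 8060 genes were called (4053 higher, 4007 lower). The median size of a called change was 0.463 on the log2 scale, with quartiles of 0.305 and 0.763, and the median over all genes tested was −0.01. Large changes were mostly downward: 1066 called genes changed by more than 1 log2 unit, of which 268 were higher and 798 lower, and beyond 3 log2 units 11 were higher and 42 lower. In bulk marrow, fewer cells of a type and less RNA per cell cannot be told apart. Single comparisons called 5627 of 14265 genes for the mutation under vehicle (39.4%), 441 of 14223 for the drug in U2AF1(WT) mice (3.10%) and 1535 of 14172 for the drug in U2AF1(S34F) mice (10.8%).

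Called genes with a mean of at least 5 CPM and groups that do not overlap were ranked by fold. The 10 largest falls by this rule included Egr1, Ptgs2, Thbs1, Atf3 and Fosb. Egr1, an immediate-early transcription factor, was at 168, 64.5, 157, 231 and 176 CPM in Veh_WT mice. It was at 6.36, 6.22, 5.85, 11.7 and 5.62 CPM in Sud_MUT mice. Veh_WT_2 was the lowest of its group and still far above every Sud_MUT mouse (log2 fold change −4.47, SE 0.37, FDR=2.75e-05, edgeR with Benjamini-Hochberg adjustment). The single changes of Egr1 were −2.61 for the mutation, −2.27 for the drug in U2AF1(WT) mice and −1.87 for the drug in U2AF1(S34F) mice. Ptgs2, the inducible cyclooxygenase, was at 98.4, 29.1, 84.2, 75.6 and 102 CPM against 7.26, 1.93, 1.60, 6.28 and 2.98 CPM (log2 fold change −4.27), with single changes of −2.25, −2.08 and −2.04. Thbs1, the matrix protein thrombospondin 1 of platelets and monocytes, was at 792, 299, 681, 456 and 517 CPM against 52.2, 47.0, 51.8, 46.4 and 32.7 CPM (log2 fold change −3.58), with single changes of −2.09, −2.03 and −1.51.

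Atf3 and Fosb fell as far but with another division between the factors. Atf3, a stress-induced transcription factor, was at 97.3, 60.1, 58.7, 59.5 and 67.4 CPM in Veh_WT mice and at 6.43, 4.19, 3.52, 5.67 and 3.83 CPM in Sud_MUT mice. The mean was 4.76 CPM in U2AF1(S34F) mice under vehicle and 13.1 CPM in U2AF1(WT) mice given the drug. Its log2 fold change was −3.85 (SE 0.20, FDR=1.73e-07, edgeR with Benjamini-Hochberg adjustment), with −3.85 for the mutation, −2.41 for the drug in U2AF1(WT) mice and −0.01 for the drug in U2AF1(S34F) mice. Atf3 was the 1 gene of 14223 for which the interaction of genotype and drug over 20 mice was called (log2 2.38, FDR=0.000994), and 1063 genes had an unadjusted p under 0.05 for it. Fosb, a partner of Jun in the AP-1 factor, fell by 3.47 on the log2 scale, with −3.40, −1.53 and −0.09 in the same order.

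The other 5 falls were in genes with close copies or little known function. Hist1h4m, a replication-dependent histone H4 gene, was at 20.4 to 36.7 CPM in Veh_WT and 0.381 to 0.933 CPM in Sud_MUT (log2 fold change −5.61), while its neighbour Hist1h4i rose from 43.4 to 56.3 CPM to between 97.1 and 124 CPM (log2 fold change 1.19). Histone H4 genes are nearly identical in sequence, so the share of reads given to each is uncertain. The same limit holds for Hspa1a, an inducible HSP70 chaperone gene with a twin copy (5.28 to 23 CPM against 0.325 to 1.41 CPM), and for Trim30d, of the Trim30 cluster (9.19 to 12 CPM against 0.357 to 1.25 CPM). Gpr137b-ps fell by 4.01 and Gm13237 by 3.60 on the log2 scale, each with a mutation change of −3.36. The junction reads of Gpr137b-ps moved far less than its gene count, from 10.3 (SD 2.19, n=5) to 7.93 (SD 1.44, n=5) CPM of junction reads (p=0.0952, exact permutation test, two-sided).

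Fewer genes rose as far. Lars2, the mitochondrial leucyl-tRNA synthetase, had the largest rise by the same rule. Its gene count was at 73.2, 37.9, 114, 173 and 87.1 CPM in Veh_WT mice and at 5204, 5682, 6791, 2170 and 1275 CPM in Sud_MUT mice (log2 fold change 5.44, SE 0.63, FDR=0.000280, edgeR with Benjamini-Hochberg adjustment). Its spliced reads did not rise with it: the junction reads of Lars2, as CPM of the junction reads of a library without TMM scaling, went from 16.5 CPM (SD 1.54, n=5) to 11 (SD 1.98, n=5), a fall of p=0.00794 in the exact permutation test, two-sided, the smallest p that 5 mice against 5 allow. Where in the gene the added counts lay was not tested. Fah, the last enzyme of tyrosine breakdown, rose from 1.43 to 3.76 CPM to between 17.5 and 27.4 CPM (log2 fold change 3.05). Acvrl1, a receptor for BMP9 on endothelium, rose from 36.0 to 62.8 CPM to between 148 and 331 CPM (log2 fold change 2.23, single changes 1.78, 0.98 and 0.44), and its junction reads rose as well, from 37.1 to 149 CPM.

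Clec1b, the platelet receptor CLEC-2 for podoplanin, was at 3.62, 2.84, 5.24, 3.65 and 4.99 CPM in Veh_WT mice. It was at 24.3, 25.3, 34.4, 14.6 and 26.5 CPM in Sud_MUT mice. The rise (log2 fold change 2.61, SE 0.22, FDR=6.26e-06, edgeR with Benjamini-Hochberg adjustment) had single changes of 1.29, 1.31 and 1.31. Slc15a2, a peptide transporter, rose by 1.72 on the log2 scale, with 1.98 for the mutation and −0.94 for the drug in U2AF1(WT) mice, of which the drug change was not called. Gm1975 (3.36), A530099J19Rik (2.28), Gm16867 (1.81), Sncaip (1.81) and Clec4b2 (1.78), a lectin receptor of myeloid cells, completed the 10 largest rises among called genes with at least 5 CPM and groups that do not overlap. Gm1975 varied most within Sud_MUT among these (SE 0.78), and A530099J19Rik had almost no junction reads in either group (0.0530 and 0.0602 CPM). Sncaip encodes synphilin-1, which binds alpha-synuclein.

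**Figure D3:**
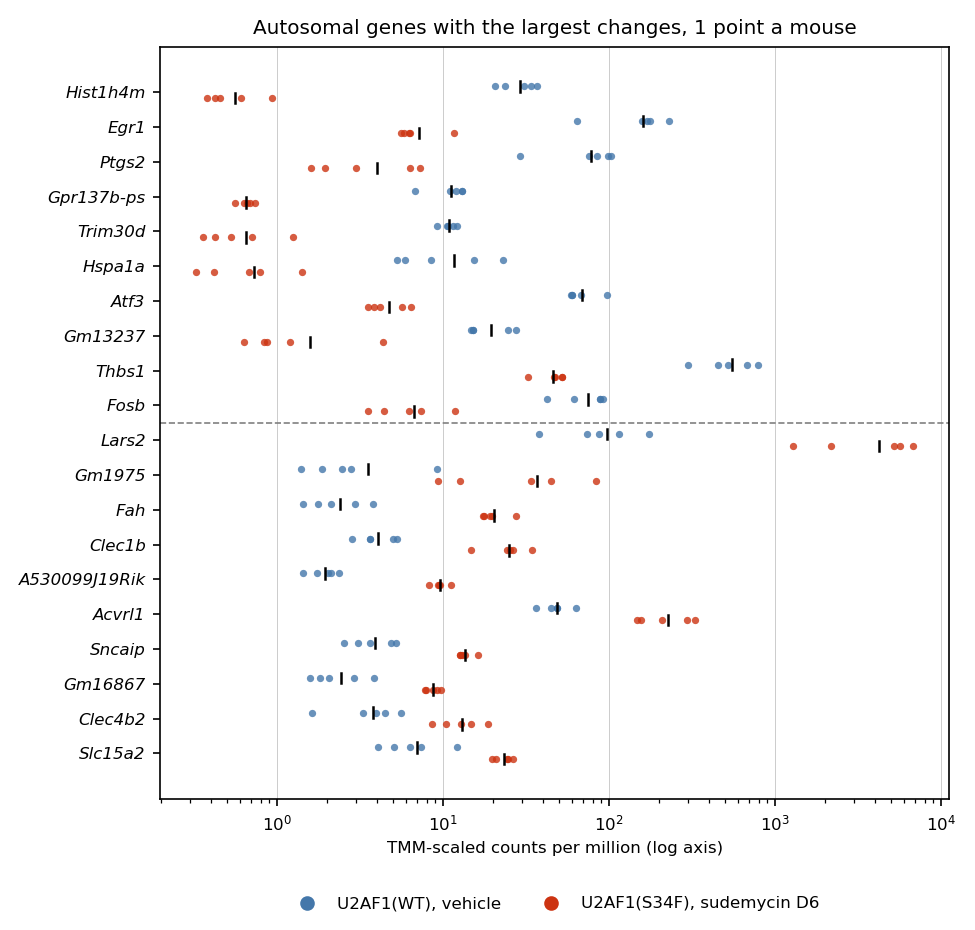
CPM of named genes in each mouse (points, log axis) with the group mean as a bar, for Veh_WT (blue) and Sud_MUT (red), lower genes above the dashed line and higher genes under it. Egr1 sits between 64.5 and 231 CPM in the Veh_WT mice and between 5.62 and 11.7 CPM in the Sud_MUT mice, with Veh_WT_2 lowest in its group, and Clec1b between 2.84 and 5.24 CPM and between 14.6 and 34.4 CPM.

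Immediate-early genes fell together. All 24 tested were lower in Sud_MUT (100% against 25.3% of all genes), with a median log2 fold change of −2.10, against −0.01 over all genes tested. Their CPM summed to 6979, 4343, 7020, 8711 and 6701 in Veh_WT mice and to 2058, 1800, 1879, 1809 and 1931 in Sud_MUT mice. Veh_WT_2 had the lowest sum of its group, and without it the median was −2.24. Fos, the founding member of the AP-1 family, was at 1127, 530, 1091, 1181 and 963 CPM against 205, 95.9, 130, 166 and 121 CPM (log2 fold change −2.77). Jun fell by 2.28 and the mRNA-destabilising factor Zfp36 by 2.07 on the log2 scale. Fos and Jun were chosen after their values were seen. The list medians of the single comparisons were −1.48 for the mutation, with 24 lower, −0.60 for the drug in U2AF1(WT) mice, with 11 lower, and −0.36 for the drug in U2AF1(S34F) mice, with 9 lower. Each list that follows is given with the percentage of its tested members called in either direction, to be read against 50.2% of all genes, of which 24.9% were higher and 25.3% lower. None of these percentages was tested against that of all genes.

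Inflammatory cytokine and NF-κB feedback genes also fell, 22 of 33 being lower and 3 higher (75.8% called, median −0.73), and 22 and 5 without Veh_WT_2. Nfkbiz, an inhibitor-like co-regulator of NF-κB, had the smallest FDR of the autosomal genes together with Pmaip1. It was at 313, 271, 251.8, 277 and 269 CPM against 71.1, 54.0, 63.5, 59.3 and 70.9 CPM. The groups were far apart with little spread (log2 fold change −2.11, SE 0.09, FDR=3.72e-09, edgeR with Benjamini-Hochberg adjustment), and the single changes were −1.87, −0.94 and −0.26. Tnfaip3, the A20 enzyme that restrains NF-κB, fell by 1.83, and the chemokine Ccl3 by 3.03 on the log2 scale. Il1b, the precursor of interleukin-1 beta, fell from 363 to 600 CPM to between 71.1 and 146 CPM, and Cxcl2, a neutrophil chemokine, from 76.2 to 185 CPM to between 2.89 and 22.5 CPM. Il1b and Cxcl2 were chosen after their values were seen.

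Stress-response genes went both ways. Of 31 genes of the integrated stress and unfolded protein responses, 14 were higher and 10 lower (77.4% called, median 0.12), and 16 and 11 without Veh_WT_2 (median 0.21). Those that fell included Atf4, the master factor of the integrated stress response (244 to 118 CPM on average), its target Ddit3 (log2 fold change −1.15), and Ppp1r15a, which restores translation (76.0 to 11.5 CPM). Heat shock chaperones were split between 9 higher and 6 lower of 20 (75% called, median 0.15). Among 18 glucocorticoid-responsive genes, 7 were lower and 2 higher (median −0.16), and the 50% called was close to that of all genes. Among 20 circadian clock genes 12 were lower and none higher in the edgeR test, with 8 not called (60% called, median −0.39), and without Veh_WT_2 12 were lower and 1 higher. Per1, a clock gene that glucocorticoids induce, was at 50.3 to 131 CPM in Veh_WT and 16.7 to 28.5 CPM in Sud_MUT (log2 fold change −1.97), with −2.72 for the mutation, −0.98 for the drug in U2AF1(WT) mice and 0.74 for the drug in U2AF1(S34F) mice.

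MHC class II genes, which present antigen to CD4+ T cells, were lower. Of 13 tested, 11 fell and 0 rose in the edgeR test (84.6% called, median −1.28), and without Veh_WT_2 11 fell and 1 rose (median −1.44). H2-Aa, the alpha chain of I-A, was at 123, 74.7, 144, 162 and 132 CPM in Veh_WT mice and at 46.8, 57.8, 35.4, 46.0 and 37.6 CPM in Sud_MUT mice. The groups did not overlap (log2 fold change −1.51, SE 0.19, FDR=0.000174, edgeR with Benjamini-Hochberg adjustment). Ciita, the transactivator of the class II genes, fell by 1.47 on the log2 scale, and the invariant chain Cd74, chosen after its values were seen, from a mean of 291 to 84.9 CPM. B cells, dendritic cells and monocytes carry these genes, and their own markers are given below.

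MHC class I and antigen processing genes had 13 of 21 lower and 4 higher (81% called, median −0.32), and 13 and 5 without Veh_WT_2. H2-K1, a classical class I heavy chain, was at 454, 490, 463, 493 and 438 CPM against 251, 267, 246, 240 and 269 CPM. Spread was small and the groups did not overlap (log2 fold change −0.88, SE 0.07, FDR=1.10e-06, edgeR with Benjamini-Hochberg adjustment). Its single changes were −0.22 for the mutation, −0.31 for the drug in U2AF1(WT) mice and −0.67 for the drug in U2AF1(S34F) mice. H2-Q7, a nonclassical class I gene, fell from 43.9 to 64.2 CPM to between 13.1 and 16.5 CPM (log2 fold change −1.88, single changes −0.49, −0.97 and −1.41), and its near-identical neighbour H2-Q6 by 1.90, so that reads of these genes may be exchanged between them.

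Interferon-stimulated genes fell in 23 of 36 and rose in 2 (69.4% called, median −0.53), and 22 fell and 3 rose without Veh_WT_2. Irf7, the factor that amplifies type I interferon, was at 47.2, 40.2, 39.1, 39.2 and 37.8 CPM against 14.9, 18.1, 15.1, 14.8 and 17.8 CPM (log2 fold change −1.33, SE 0.09, FDR=2.98e-07, edgeR with Benjamini-Hochberg adjustment). Ifi44 fell by 3.29 on the log2 scale from 2.06 to 4.56 CPM in Veh_WT, and Xaf1, an interferon-induced regulator of apoptosis, by 1.21. Ifit2, chosen after its values were seen, rose by 0.28 (FDR=0.0357, edgeR with Benjamini-Hochberg adjustment), a call that was lost without Sud_MUT_9 (FDR=0.107) and in 1 model of 20 mice (FDR=0.225). Medians of the list were 0.23 for the mutation (9 higher, 1 lower), −0.37 for the drug in U2AF1(WT) mice (0 higher, 7 lower) and −0.61 for the drug in U2AF1(S34F) mice (0 higher, 23 lower). In Xaf1 the single changes were −0.02, −0.74 and −1.21, and in Irf7 −0.26, −0.84 and −1.09.

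**Figure D4:**
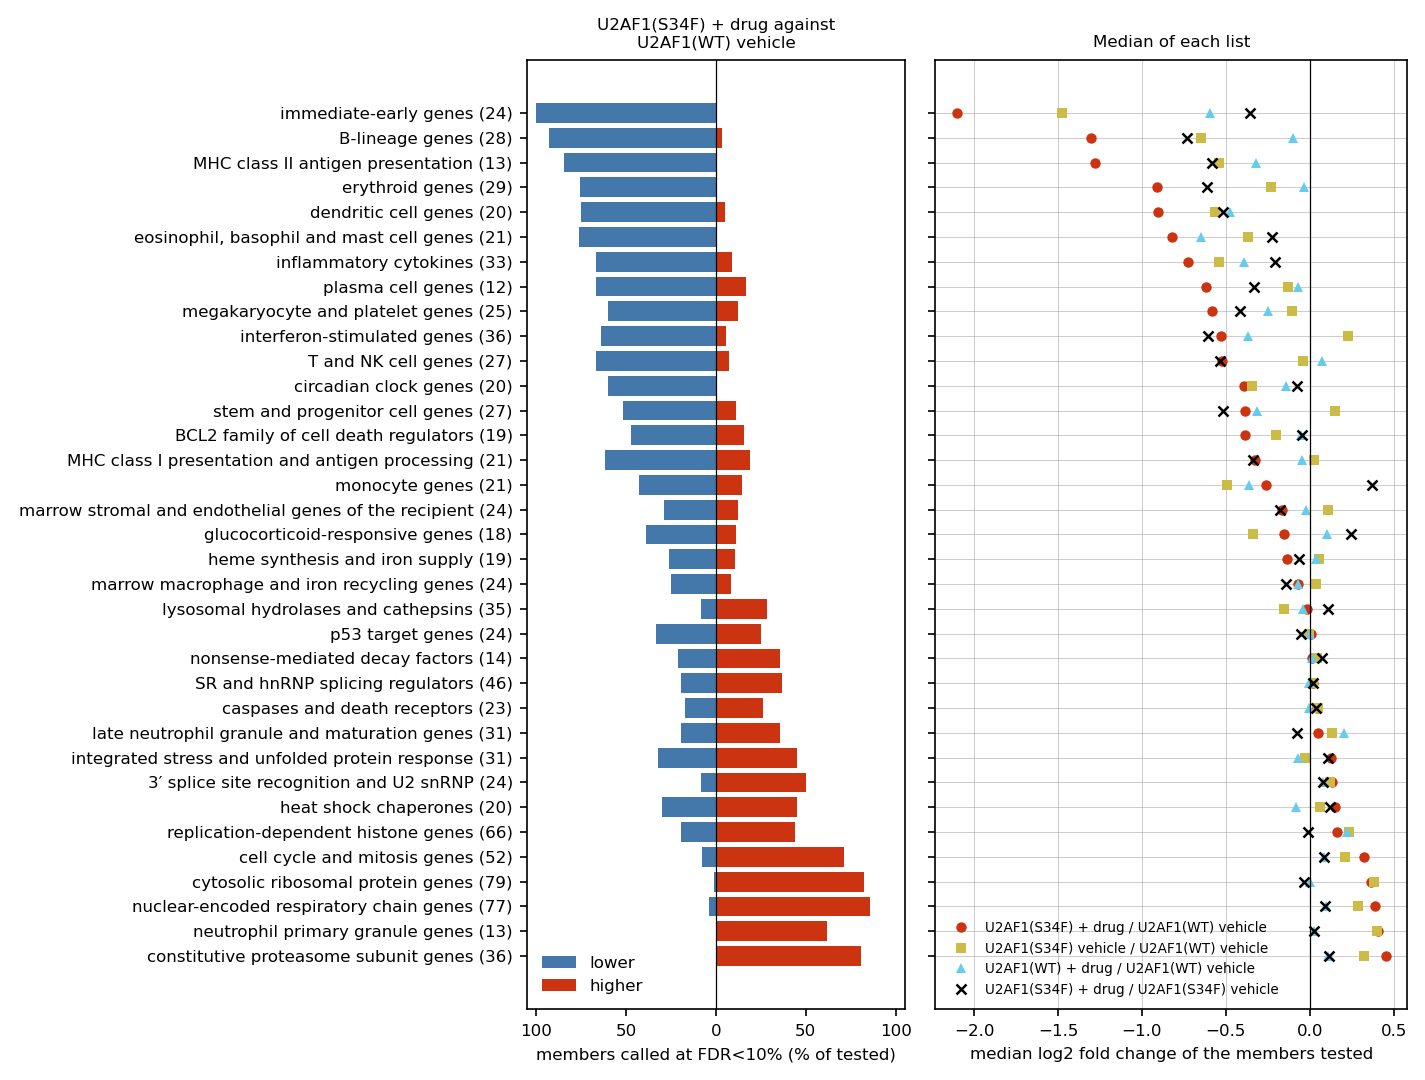
For each gene list (number of members tested in parentheses), the left panel gives the percentage of members called lower (blue) and higher (red) in Sud_MUT, and the right panel the median log2 fold change of this and the single comparisons, which share mice. All 24 immediate-early genes are lower, and 65 of 79 ribosomal protein genes are higher.

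Lineage genes fell in most lymphoid, erythroid and mast cell lists. Of 28 B-lineage genes, 26 were lower and 1 higher (96.4% called, median −1.31), and 27 and 1 without Veh_WT_2 (median −1.50). Rag1, the recombinase of antigen receptor genes, was at 4.51, 3.29, 3.8, 1.70 and 3.98 CPM in Veh_WT mice and at 0.488, 0.306, 0.163, 0.377 and 0 CPM in Sud_MUT mice (log2 fold change −3.51, SE 0.51, FDR=0.000258, edgeR with Benjamini-Hochberg adjustment), with single changes of −0.56, −2.62 and −2.99. Igll1, a surrogate light chain of pre-B cells, fell by 2.85 on the log2 scale, with −0.79, −2.48 and −2.10. Rag1 was chosen after its values were seen. The summed CPM of the B-lineage list overlapped between the groups (1225 to 1805 against 1276 to 1567), and without Veh_WT_2 it did not.

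T and NK cell genes were lower in 18 of 27 and higher in 2 (74.1% called, median −0.52), and in 19 and 2 without Veh_WT_2. Their summed CPM overlapped between the groups (119 to 174 against 130 to 165), also without Veh_WT_2. Plasma cell genes were lower in 8 of 12 and higher in 2 (83.3% called, median −0.62), and dendritic cell genes lower in 15 of 20 and higher in 1 (80% called, median −0.91). The sums of these lists overlapped between the groups with Veh_WT_2 and not without it. Cd3e, a chain of the T cell receptor complex, fell by 1.56 on the log2 scale to 0.435 to 0.651 CPM. The 1 dendritic cell gene that rose was Clec9a, a receptor for dead cells on cross-presenting dendritic cells, at 2.51, 2.72, 3.94, 2.80 and 4.47 CPM against 8.57, 8.40, 10.9, 5.97 and 9.17 CPM (log2 fold change 1.38, SE 0.19, FDR=0.000130, edgeR with Benjamini-Hochberg adjustment). Spib, a factor of plasmacytoid dendritic and B cells, fell by 1.67.

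Of 29 erythroid genes, 22 were lower and 0 higher in the edgeR test (75.9% called, median −0.91), a count that was the same without Veh_WT_2. Their summed CPM overlapped with near-equal medians (970 to 1583 CPM, median 1031, against 871 to 1267, median 1042). Klf1, the main erythroid transcription factor, was at 8.93, 5.46, 7.57, 6.08 and 6.87 CPM against 3.12, 2.16, 1.25, 4.09 and 2.24 CPM (log2 fold change −1.43, SE 0.25, FDR=0.000863, edgeR with Benjamini-Hochberg adjustment), and Gfi1b, a repressor needed for erythroid and megakaryocytic cells, fell by 1.12. Car1, the erythroid carbonic anhydrase, fell from 32.3 to 55.7 CPM to between 4.19 and 19.9 CPM, with single changes of −0.05, −1.0 and −1.88. The adult globin gene Hbb-b1 was not called, at 123 to 380 CPM in Veh_WT and 201 to 402 CPM in Sud_MUT (log2 fold change 0.66, FDR=0.129). Veh_WT_1 was the highest of its group, and without it the value was 1.06 (FDR=0.00138). Car1 and Hbb-b1 were chosen after their values were seen. Heme synthesis and iron supply genes had 5 lower and 2 higher of 19 (36.8% called), with Alad, an early enzyme of heme synthesis, falling by 0.84.

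Eosinophil, basophil and mast cell genes fell in 16 of 21, with 0 higher in the edgeR test (76.2% called, median −0.82), and in 18 without Veh_WT_2, and the summed CPM did not overlap (1081 to 1612 against 916 to 1042). Prg2, the eosinophil major basic protein, was at 152 to 242 CPM against 68.5 to 104 CPM (log2 fold change −1.23, single changes −0.22, −0.56 and −1.03). Megakaryocyte and platelet genes were lower in 15 of 25 and higher in 3 (72% called, median −0.58), among them Itga2b, the platelet integrin alpha IIb, which fell by 1.11, and Clec1b, which rose as given above. Stem and progenitor cell genes were lower in 14 of 27 and higher in 3 (63% called, median −0.39), with overlapping sums. In that list Prom1 rose by 0.64 and Gpr56 fell by 0.97, and the medians of the single comparisons were 0.15, −0.32 and −0.52. Gata2, a factor of progenitors and mast cells chosen after its values were seen, fell from a mean of 19.2 to 6.41 CPM.

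Neutrophil genes, the most abundant in marrow, rose in part. Primary granule genes had 8 of 13 higher and 0 lower in the edgeR test (61.5% called, median 0.40), and 8 higher and 1 lower without Veh_WT_2. Prtn3, the protease proteinase 3, was at 213 to 382 CPM against 383 to 622 CPM. Late granule and maturation genes had 11 of 31 higher and 6 lower (54.8% called, median 0.05). S100a8, a calprotectin subunit, was at 10293, 11880, 11668, 6342 and 14256 CPM in Veh_WT mice and at 23735, 25150, 29257, 17238 and 30219 CPM in Sud_MUT mice (log2 fold change 1.21, SE 0.20, FDR=0.000521, edgeR with Benjamini-Hochberg adjustment), with 1.26 for the mutation and 0.20 and −0.06 for the drug. Its partner S100a9 rose by 0.73, whereas Cd300ld, a receptor of myeloid cells, fell from 49.0 to 59.7 CPM to between 10 and 16.1 CPM. S100a8 and S100a9 were chosen after their values were seen. Stfa3, a stefin with near-identical copies that was chosen in the same way, spread widely, at 4.54 to 5.77 CPM in 4 of the 5 Veh_WT mice, 21.7 CPM in Veh_WT_2 and 20.4 to 327 CPM in Sud_MUT mice. Monocyte genes had 9 lower and 3 higher of 21 (57.1% called, median −0.26), macrophage genes 6 lower and 2 higher of 24 (33.3%, median −0.07), and stromal and endothelial genes of the recipient 7 lower and 3 higher of 24 (41.7%, median −0.16), with the summed CPM of each overlapping between the groups.

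Genes of growth and protein turnover rose by small, similar amounts. Cytosolic ribosomal protein genes were higher in 65 of 79 and lower in 1 (83.5% called, median 0.36), respiratory chain genes higher in 66 of 77 and lower in 3 (89.6%, median 0.39), and proteasome subunit genes higher in 29 of 36 and lower in 0 by the edgeR test (80.6%, median 0.45). Without Veh_WT_2 these counts were 73, 71 and 31 higher, with medians of 0.47, 0.50 and 0.57. Veh_WT_2 carried the highest sum of its group for all 3 lists: ribosomal protein genes summed to 27676 CPM in it, to 17997 to 20962 CPM in the other Veh_WT mice and to 25496 to 29212 CPM in Sud_MUT mice. The ribosomal rise stood beside a median of 0.38 for the mutation under vehicle (63 higher) and of 0.00 and −0.04 for the drug.

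The 1 ribosomal protein gene that fell was Rpl29, at 45.4, 86.3, 64.2, 56.2 and 80.0 CPM against 26.7, 19.7, 20.4, 20.2 and 18.4 CPM (log2 fold change −1.65, SE 0.16, FDR=1.92e-05, edgeR with Benjamini-Hochberg adjustment). Ribosomal protein genes have many processed copies, so its reads may be divided among them. Atp5e, the epsilon subunit of ATP synthase, had the largest rise among the named respiratory genes, from 25.3 to 38.1 CPM to between 66.5 and 82.3 CPM (log2 fold change 1.29, single changes 1.17, 0.12 and 0.11). Psmc6, an ATPase of the proteasome cap, rose by 0.70.

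Cell cycle genes were higher in 37 of 52 and lower in 4 (78.8% called, median 0.32), and in 40 and 6 without Veh_WT_2 (median 0.42). Top2a, the topoisomerase of dividing cells, was at 585, 744, 547, 534 and 678 CPM against 983, 824, 1001, 985 and 988 CPM (log2 fold change 0.63, SE 0.10, FDR=0.000445, edgeR with Benjamini-Hochberg adjustment), and Ccne2, a cyclin of the G1 to S transition, rose by 0.96. Replication-dependent histone genes had 29 higher and 13 lower of 66 (63.6% called, median 0.16), and 36 and 12 without Veh_WT_2. The summed CPM of the cell cycle list was 8591 in Veh_WT_2, at most 7031 in the other Veh_WT mice and 8135 to 9149 in Sud_MUT mice. Markers of several cell types moved with these lists, and their part in the rise was not tested. Lysosomal genes had 10 higher and 3 lower of 35 (37.1% called, median −0.02), with cathepsin E, Ctse, falling from 113 to 176 CPM to between 18.7 and 30.8 CPM.

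**Figure D5:**
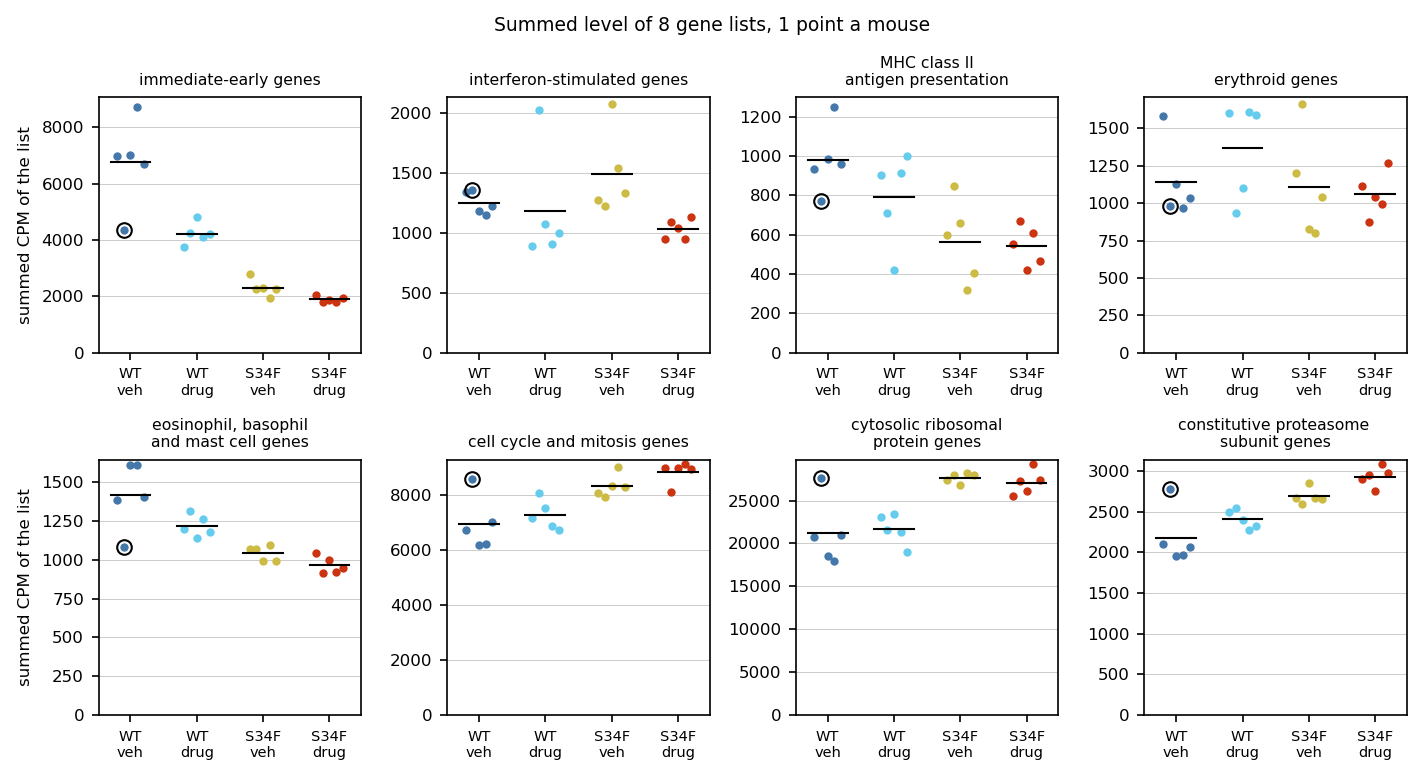
Summed CPM of 8 gene lists in each mouse (points) of all 4 groups, with the group mean as a line and Veh_WT_2 circled. Immediate-early sums lie at 4343 to 8711 CPM in Veh_WT mice and 1800 to 2058 CPM in Sud_MUT mice, whereas for ribosomal protein genes Veh_WT_2, at 27676 CPM, lies within the range of the Sud_MUT mice.

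Genes of the splicing machinery were called, counting both directions, at rates near the 50.2% of all genes. Of 24 genes for 3′ splice site recognition and the U2 snRNP, 12 were higher and 2 lower (58.3% called, median 0.13), and 13 and 4 without Veh_WT_2. Their summed CPM did not overlap between the groups (2781 to 2889 against 2965 to 3176), also without Veh_WT_2. Sf3b3, a core subunit of the SF3B complex, was at 157, 165, 150, 155 and 154 CPM in Veh_WT mice and at 241, 205, 224, 242 and 237 CPM in Sud_MUT mice (log2 fold change 0.56, SE 0.07, FDR=6.49e-05, edgeR with Benjamini-Hochberg adjustment). Its single changes were 0.01 for the mutation and 0.61 and 0.54 for the drug in U2AF1(WT) and U2AF1(S34F) mice. For Snrpb2, the B″ protein of the U2 snRNP, the order was the opposite, with 0.64 for the mutation and 0.08 and 0.16 for the drug (combined 0.82). Sf3b1, the subunit that sudemycins bind, chosen after its values were seen, was at 633 to 721 CPM against 732 to 844 CPM (log2 fold change 0.18, FDR=0.0662), a call that did not hold at FDR<5% or when Veh_WT_1, Sud_MUT_9 or Sud_MUT_12 was left out. Of 46 SR and hnRNP genes, 17 were higher and 9 lower (56.5% called, median 0.02), and 17 and 12 without Veh_WT_2. The SR kinase Clk1 fell from 370 to 504 CPM to between 242 and 283 CPM. Nonsense-mediated decay factors had 5 higher and 3 lower of 14 (57.1% called, median 0.01). The summed CPM of this list and of the SR and hnRNP list overlapped between the groups.

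Lists of cell death genes were called at 43.5% to 63.2%, against 50.2% of all genes. Of 24 p53 target genes, 6 were higher and 8 lower (58.3% called, median 0.01), and of 23 caspase and death receptor genes 6 were higher and 4 lower (43.5% called, median 0.04), or 9 and 6 without Veh_WT_2. In the BCL2 family 9 of 19 were lower and 3 higher (63.2% called, median −0.38), and 7 and 3 without Veh_WT_2. Summed CPM did not overlap between the groups for p53 targets (1204 to 1805 against 917 to 1053). The same was so for the BCL2 family (1154 to 1384 against 836 to 907). Both held without Veh_WT_2, while the caspase and death receptor sums overlapped with and without it. Pmaip1, which encodes the BH3-only protein NOXA, was at 56.2, 49.9, 53.9, 46.9 and 44.4 CPM against 12.8, 12.1, 10.5, 10.8 and 9.68 CPM (log2 fold change −2.17, SE 0.10, FDR=3.72e-09, edgeR with Benjamini-Hochberg adjustment), with single changes of −2.04, −0.98 and −0.14. Mcl1, a survival factor that NOXA binds, fell from 692 to 978 CPM to between 464 and 544 CPM (log2 fold change −0.72). Bcl2l11, which encodes the killer protein BIM, fell by 0.75 in gene counts, while its junction reads went from 6.79 to 6.19 CPM (p=0.206, exact permutation test, two-sided, n=5 against 5).

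Genes with a called cassette exon were called in level about as often as all genes with a tested cassette exon. The larger set includes the smaller, and the difference was not tested. Where the genes of an overlapping group are counted singly, called cassette exons lay in 1081 genes. Of the 1069 of these with a tested level, 577 were called in level (54.0%), against 54.8% of the 6949 genes with any tested cassette exon. Of the genes called in level, 8.12% held a called cassette exon. Among the genes named for an exon, Smc6 rose in level by 0.62 (FDR=0.000122) and Ccbl2 by 0.69 (FDR=0.00660), Itgb2l fell by 0.70 (FDR=0.00101) and Cass4 by 0.72 (FDR=0.00227), and Ktn1, Tpd52 and Ythdf3 were not called (edgeR with Benjamini-Hochberg adjustment).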

How the data were processed

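The gene table and the junction table hold counts per mouse as deposited by the authors. They aligned paired 126 bp reads of stranded, ribosomal RNA-depleted libraries to mm9 with TopHat2 (2.0.8), and the gene counter is not given in the sources used here. The gene test was the robust quasi-likelihood F-test of edgeR (4.0.16, under R 4.3.3) after filterByExpr and TMM scaling, with Benjamini-Hochberg adjustment over all genes and FDR<10%, and autosomal genes were then counted. Printed log2 fold changes were moderated with a prior count of 2. The SE of a gene comes from the fold and F of the test, without that prior count. The SE of a ΔΨ comes from the spread of Ψ between mice in each group and not from the edgeR test.

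Mutually exclusive exons, cassette exons and alternative splice sites at either intron end were built from the authors' junction counts and the NCBIM37 annotation. Events needed a mean of 10 reads a mouse and 10 reads of each isoform. The isoform ratio was tested in edgeR with a coefficient for each mouse and dispersion 0, in 1 fit over the 4 types, with FDR<10% within a type and |ΔΨ|>1%. For a cassette exon the inclusion count tested was the sum over its 2 inclusion junctions, and their mean was used for Ψ. Single values were tested with the exact two-sided permutation test over all divisions of the 10 mice, whose smallest p is 0.00794. Simulated data were used for the gene test and, for cassette exons, for the event test and limma on Ψ. The other alternatives were not run on simulated data.

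Named genes were the 10 largest autosomal folds each way among called genes with at least 5 CPM, groups that do not overlap and no antigen receptor segments, and up to 3 members with the smallest FDR of each of 35 gene lists. Named exons were the 8 largest each way with a mean of at least 30 junction reads a mouse in each group and no overlap, 1 a gene, 2 events of each other type, and exons of 4932438A13Rik and Cd97. The members and lists were chosen with earlier results of these data known. Dispersion 0 came from earlier work on these data, and the bias-adjusted form, the joint fit and the isoform minimum were chosen after event counts had been seen. Alternatives were DESeq2 1.42.0 and its size factors, other filters and thresholds, limma 3.58.1 on Ψ, an estimated dispersion, 1 event a gene, 1 model of 20 mice, and leaving out each mouse. Nothing says how many donor pools supplied a group, so p-values measure the spread between these mice.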

Additional observations from a re-analysis of the deposited data

Results flagged for a closer look

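Of 316 sets of 5 values tested, 18 held a mouse far from the rest of its group, and chance alone flags about 1 in 20 such sets. In Veh_WT_2 these were Gm1975 at 9.24 CPM (others 1.39 to 2.77), Stfa3 at 21.7 (4.54 to 5.77), Irf4, a factor of plasma cells, at 10.8 (20 to 22.4) and Spib at 6.61 (15.5 to 19.0). In Veh_WT_1 they were Atf3 at 97.3 CPM (58.7 to 67.4), Irf7 at 47.2 (37.8 to 40.2) and Hbb-b1 at 380 (123 to 170), and in Veh_WT_4 the Ψ of the Tpd52 exon was 0.6 (0.889 to 1).

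Among Sud_MUT mice, Sud_MUT_2 stood apart for Gm13237 at 4.32 CPM (0.631 to 1.2) and Rpl29 at 26.7 (18.4 to 20.4). Sud_MUT_6 was low for the proliferation genes Ccne2 at 29.6 CPM (39.8 to 43.9) and Top2a at 824 (983 to 1001). Sud_MUT_9 was high for Fah at 27.4 CPM (17.5 to 19.6), Sncaip at 16.3 (12.6 to 13.5) and Stfa3 at 327 (20.4 to 106). Sud_MUT_10 was high for Egr1 at 11.7 CPM (5.62 to 6.36) and for the Ψ of the Itgb3bp exon at 0.797 (0.467 to 0.548), and Sud_MUT_12 for the Ψ of the 5930416I19Rik exon at 1 (0.282 to 0.479).

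The effect of the drug differed between genotypes in a test of the difference itself for Atf3 (log2 2.38, FDR=0.000994, Benjamini-Hochberg adjusted p of edgeR) and for a mutually exclusive exon pair of Cd177, a neutrophil surface protein (−0.27 on the logit scale, FDR=0.0366). In the combined comparison that pair moved by only 0.00856, from a mean Ψ of 0.446 to 0.454, and was not called. Outside the autosomes, 4 Y-linked genes summed to at least 11217 counts in each Sud_MUT mouse and to 0 to 4 in each Veh_WT mouse.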

How the results depend on the processing

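No named result changed direction under any alternative. Gene counts moved little: 7479 with DESeq2, 7153 with its size factors, 6929 with no filter, 7151 with at least 10 counts in 5 mice, 7145 with autosomal genes alone, 6582 in 1 model of 20 mice and 5850 at FDR<5%, but 1066 (268 higher, 798 lower) where a change over 1 log2 unit was also asked. Leaving out each mouse gave 6182 (without Veh_WT_3) to 8060 genes (without Veh_WT_2), with 2986 to 4053 higher and 3196 to 4007 lower. Cassette exon events numbered 1046 (without Sud_MUT_9) to 1499, with 635 to 862 skipped more and 411 to 661 included more. Alternative 3′ site events ranged over 60 to 100, alternative 5′ site events over 15 to 27 and mutually exclusive events over 164 to 241.

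Event counts depended on the model of spread. With an estimated dispersion there were 37 cassette exon events (24 skipped more, 13 included more), 2 alternative 3′ site events, 0 alternative 5′ site events (edgeR, 86 at an unadjusted p under 0.05) and 18 mutually exclusive events, and 21 of 27 named events lost their call. By limma on Ψ there were 982 (326 included more), 74, 6 and 137. With 1 event a gene, which tests fewer events, there were 341 (200 and 141), 64, 15 and 117, and with |ΔΨ|>0.1 there were 537 (337 and 200), 56, 7 and 76. Alternative 5′ site events rose to 33 with at least 1 read of each isoform and to 36 with the classic quasi-likelihood form, both added after seeing the data. The cause of these differences was not tested. Of the named gene values, 2313 of 2376 kept their side of the threshold, and 55 of the 61 losses came with the limit of 1 log2 unit. No paired analysis was possible because no label pairs the Veh_WT and Sud_MUT mice, and the replicate numbers are not said to mark pairs.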

Other observations

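Junction reads outside the annotation made up a small share of each library. Reads of junctions with an annotated 3′ splice site joined to an unannotated 5′ site were 0.501% (SD 0.0364, n=5) of autosomal junction reads in Veh_WT mice and 0.442% (SD 0.0141, n=5) in Sud_MUT mice (p=0.0397, exact permutation test, two-sided, of 5 such shares compared). Those with an annotated 5′ site joined to an unannotated 3′ site were 0.535% and 0.482% (exact permutation p=0.0159). Junctions with neither site annotated (1.26% and 1.30%, exact permutation p=0.746), unannotated pairs of annotated sites (0.259% and 0.245%, p=0.135 by the same exact test) and annotated junctions (97.4% and 97.5%, p=0.492 by the same exact test) did not pass the test. None of the 5 p-values was adjusted, and with 5 shares that sum to the whole they are not independent.

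Called genes were spread over the genome and over gene types. The percentage called ranged from 46.0 to 55.0 among the autosomes. It was 51.2% of 12817 protein-coding genes, 41.1% of 397 lincRNA genes, 45.8% of 369 pseudogenes, 36.2% of 138 immunoglobulin V segments and 30.5% of 95 snoRNA genes.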
